A study of Mus musculus with 69 samples.

Results

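The respiratory chain and ATP synthase genes studied here were taken by symbol: those starting with Atp5, Nduf, Sdh, Uqcr or with Cox followed by a number, provided that they held at least 100 counts over the original libraries. This rule took 103 of the 24523 symbols with counts. The pattern matched 106 symbols, and Ndufs5 (5 counts), Cox7b2 (12) and Cox8c (33) had too few counts to enter. Every other structural subunit of complex I held 237098 counts (Ndufb3) or more. Whether reads of Ndufs5 were lost in alignment or counting was not tested, so its count may not give its level in kidney. All 103 passed the filter on low counts in every comparison. They comprised 74 structural subunits (35 of complex I, 4 of complex II, 8 of complex III, 12 of complex IV and 15 of complex V), 23 assembly factors and related proteins, and 6 tissue-restricted isoforms of complex IV. Ndufa4 and Ndufa4l2 were placed with complex IV, where the Ndufa4 protein resides despite its name. Counts per complex refer to genes taken by this rule. Subunits with other symbols, such as Cyc1 of complex III and Usmg5 of complex V, stand in the lists compared beside them. The mitochondrially encoded subunits are not analysed here.

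RNASeq was performed on perfused whole kidneys of female NZB/W F1 mice, a cross that develops spontaneous lupus nephritis. The 30 young mice were 12 weeks old and the 27 nephritic mice 30 to 45 weeks old, harvested 2 to 3 weeks after proteinuria passed 300 mg/dl and with blood urea nitrogen under 25 mg/dl. The 8 remission mice had been nephritic and were 36 to 50 weeks old when treated. They received 50 mg/kg cyclophosphamide once and 6 doses of 200 µg CTLA4Ig and 250 µg anti-CD40L over 2 weeks. They were harvested 8 weeks later with proteinuria at or under 30 mg/dl. Young and nephritic kidneys were taken every 4 h from ZT0 (lights on) through ZT20, with 3 to 7 mice per time, and remission kidneys at ZT0 and ZT12 with 4 mice each. Nephritic mice were older than young mice, so that age and disease cannot be told apart. The ages of remission mice at harvest lay higher than those of young mice and, as a range, of nephritic mice. Age and remission cannot be told apart either. No untreated mice as old as the nephritic ones but free of disease, and no treated young mice, were analysed here.

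The inner mitochondrial membrane carries 4 electron-transferring complexes and the ATP synthase. Complex I (NADH dehydrogenase) and complex II (succinate dehydrogenase, also an enzyme of the tricarboxylic acid cycle) pass electrons to ubiquinone, complex III (cytochrome bc1) passes them to cytochrome c, complex IV (cytochrome c oxidase) passes them to oxygen, and complex V uses the resulting proton gradient to make ATP. In the kidney these complexes are most abundant in the proximal tubule and thick ascending limb, whose salt and solute reabsorption runs on mitochondrial ATP.

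Total counts ranged from 25257530 to 48075977 in young and nephritic libraries and from 13311278 to 21849912 in remission libraries. The 103 genes took 2.97% to 4.08% of the counts of a young mouse, 2.28% to 4.06% of a nephritic mouse and 3.29% to 3.87% of a remission mouse. Young and nephritic libraries were split into 2 groups by their titles, taken here as sequencing sets, which the labels do not state. Set 1 held 6 young and 5 nephritic mice of ZT0 and ZT12. From their titles, the remission libraries and repeat libraries of 4 mice were taken as a separate run, which the labels do not state; if so, run and remission cannot be told apart without those repeats. Of the 4 repeats, 3 lay nearest their own originals (Spearman rho over 12955 genes 0.995 to 0.997), but the repeat of nephritic mouse RX11RU lay nearest another mouse, RX11LU (rho 0.996), with its own original at rank 19 (rho 0.973). Remission mouse s9, labelled ZT12, had 27.6 CPM of the clock gene Arntl, within the range of the ZT0 remission mice (22.7 to 29.2) and not of the other ZT12 ones (3.20 to 4.92). Adrenal genes summed to 1892 CPM in young mouse ZT120 and 1288 in nephritic mouse RX10LU, against medians of 6.88 and 5.85 in their groups, and RX10LU had the lowest summed level of complexes I, III and IV of all mice.

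Windows of 300 bases around the transcription start (250 before and 50 after), from RefSeq on GRCm38.p6, were matched to 86 of the 103 genes. The 4 windows below belong to subunits of complexes II, III and V that were lower in nephritis and to Cox8b, the 1 gene that was higher. They do not stand for all lower genes. Windows of Sdha, Sdhb, Uqcrfs1 and Atp5b, which fell more than the subunit shown of their complex, held none of the motifs searched. Uqcr11 and Atp5j2 were among the least lowered subunits of their complexes. Each is printed 5′ to 3′ on the strand of its gene, and capitals mark matches, on either strand, to GCGCATGCG (core of the NRF1 motif), CCGGAAGT (ETS factors, which include GABPA), CAAGATGGC (YY1), TCAAGGTCA (estrogen-related receptors) or CACGTG (the E-box).

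Sdhd, the membrane anchor subunit of complex II, chr9:50603800-50604099, minus strand, with the estrogen-related receptor letters in reverse: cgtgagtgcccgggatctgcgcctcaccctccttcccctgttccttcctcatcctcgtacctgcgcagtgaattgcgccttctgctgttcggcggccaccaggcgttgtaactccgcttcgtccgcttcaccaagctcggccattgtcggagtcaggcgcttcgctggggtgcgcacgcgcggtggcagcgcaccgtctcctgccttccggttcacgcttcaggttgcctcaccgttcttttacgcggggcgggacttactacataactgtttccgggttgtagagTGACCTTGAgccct
Uqcr11, a small subunit of complex III, chr10:80406772-80407071, minus strand, with the ETS letters and then the NRF1 core in reverse: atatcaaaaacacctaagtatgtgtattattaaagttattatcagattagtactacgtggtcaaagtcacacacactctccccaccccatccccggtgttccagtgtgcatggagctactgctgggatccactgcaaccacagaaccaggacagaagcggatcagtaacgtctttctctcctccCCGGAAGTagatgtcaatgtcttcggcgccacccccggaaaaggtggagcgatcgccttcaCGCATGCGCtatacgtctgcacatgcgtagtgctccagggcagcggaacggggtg
Atp5j2, the f subunit of complex V, chr5:145191492-145191791, minus strand, with the YY1 letters: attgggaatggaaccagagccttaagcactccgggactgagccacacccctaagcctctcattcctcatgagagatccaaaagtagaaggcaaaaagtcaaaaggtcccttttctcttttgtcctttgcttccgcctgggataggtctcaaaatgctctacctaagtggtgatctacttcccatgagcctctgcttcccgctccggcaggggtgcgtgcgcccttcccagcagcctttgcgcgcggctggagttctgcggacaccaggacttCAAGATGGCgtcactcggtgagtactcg
Cox8b, a muscle and brown fat isoform of a complex IV subunit, chr7:140900397-140900696, minus strand, with none of the 5 motifs: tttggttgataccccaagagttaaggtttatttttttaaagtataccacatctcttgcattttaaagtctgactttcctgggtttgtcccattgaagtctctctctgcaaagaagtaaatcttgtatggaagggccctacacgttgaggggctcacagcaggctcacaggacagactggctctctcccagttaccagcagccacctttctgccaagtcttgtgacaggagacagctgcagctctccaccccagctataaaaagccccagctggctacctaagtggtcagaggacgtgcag

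The 86 genes had 93 such windows. The NRF1 core was present in 10 of them (10.8%), against 1.75% of all 32851 mouse windows. The ETS letters were in 9.68% against 3.89%, the YY1 letters in 10.8% against 1.24%, the estrogen-related receptor letters in 2.15% against 0.423%, and the E-box in 9.68% against 7.15%. These are counts of exact letters and do not show that any factor was bound.

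The level of the respiratory chain was first compared between nephritic and young kidneys over all times of day. Nephritic kidneys held less RNA of nearly the whole chain: 92 of the 103 genes were lower and 1 was higher at an adjusted p of at most 0.05, whereas 33.9% of all 17521 genes tested were lower and 28.1% were higher. The median change of the 103 genes was -0.28 on the log2 scale, against -0.03 over all genes tested, and 71 of the 74 structural subunits were lower. In whole kidney RNA, fewer cells of a type and less RNA per cell cannot be told apart.

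Ndufs1 (chr1:63143592-63176822, GRCm38) encodes the largest subunit of complex I, which carries iron-sulphur clusters in the NADH-oxidising arm. Its level ranged in young mice from 212.5 to 365 with a median of 270.4 CPM (counts of the gene relative to its library's total, scaled by TMM, edgeR's correction for library composition), and in nephritic mice from 76.1 to 278 with a median of 195. The groups overlapped, but 16 of the 27 nephritic mice lay below every young mouse. The log2 change was -0.59 (SE 0.09, adjusted p = 3.71e-07).

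Sdha (chr13:74322255-74350240) encodes the flavoprotein that oxidises succinate in complex II. Its level ranged in young mice from 807 to 1232 with a median of 1064 CPM, and in nephritic mice from 273 to 1089.95 with a median of 769. Here 18 of the 27 nephritic mice were below the lowest young mouse, and the log2 change was -0.58 (SE 0.09, adjusted p = 1.42e-07). The 5 nephritic mice with the least Ndufs1 held 76.1 to 118 CPM, and the next had 141. For both genes the spread was wider among nephritic than among young mice, with an SD of 56.8 against 31.6 CPM for Ndufs1 and 211 against 85.3 CPM for Sdha.

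**Figure D1:**
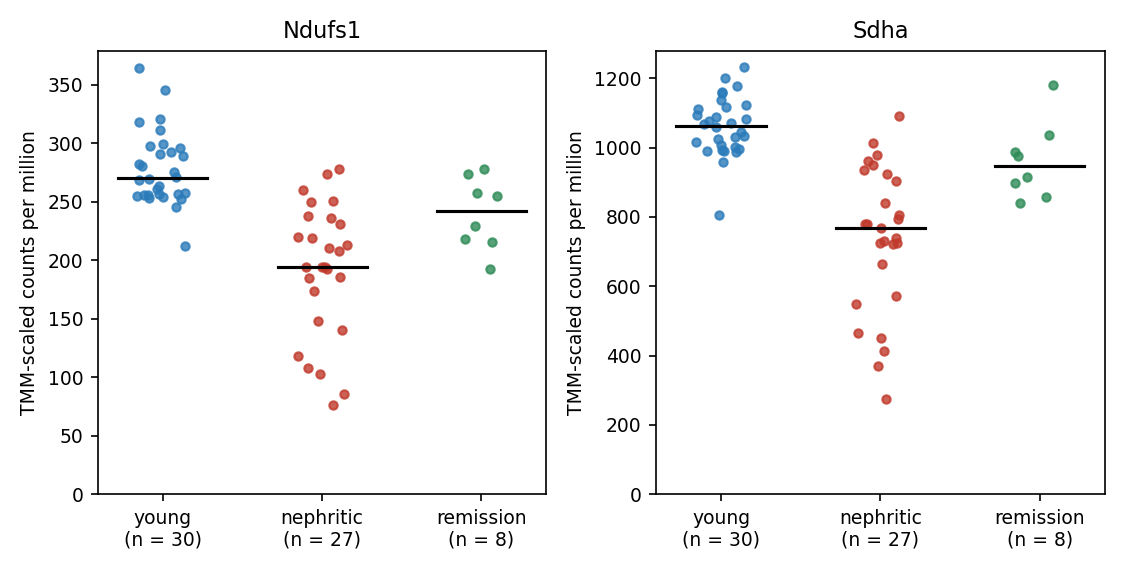
Ndufs1 and Sdha in each mouse, as TMM-scaled CPM; each point is 1 kidney library and the black line is the group median. Young mice are grouped tightly around 270.4 (Ndufs1) and 1064 (Sdha), nephritic mice spread downward from the young range to 76.1 and 273, and the 8 remission mice (193 to 278 and 840.0 to 1181) overlap both groups.

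By complex, the fall was deepest in complex II, where all 4 subunits were lower with a median log2 change of -0.50. Sdhb, the iron-sulphur subunit, changed by -0.55 (SE 0.08), Sdhd by -0.46 (SE 0.07) and Sdhc, the other membrane anchor, by -0.37 (SE 0.06). Of complex I, 32 of 35 subunits were lower with a median of -0.33; Ndufs1 and Ndufa9 (-0.45, a subunit at the junction of both arms) fell the most, and Ndufa2, Ndufa11 and Ndufb7 did not pass the test. All 8 subunits of complex III were lower (median -0.30), led by the core protein Uqcrc2 at -0.50 and the Rieske iron-sulphur protein Uqcrfs1 at -0.47, with the small subunits Uqcr10 (-0.23) and Uqcr11 (-0.26) at the other end.

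Complex IV and complex V followed the same course. All 12 structural subunits of complex IV were lower (median -0.30), from Ndufa4 at -0.41 and Cox7a2 at -0.40 to Cox5b at -0.27 and Cox7a2l at -0.19. All 15 subunits of complex V were lower (median -0.28), from the catalytic subunits Atp5b at -0.54 and Atp5a1 at -0.48 to Atp5g2, an isoform of the membrane ring subunit c, at -0.19. Levels of Atp5b were 3333 to 4687 CPM in young mice with a median of 3955, and 1218 to 3893 in nephritic mice with a median of 2890. Of the 27 nephritic mice, 20 lay below the lowest young mouse for Atp5b and 22 for Uqcrc2, the highest number of any of the 103 genes.

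**Figure D2:**
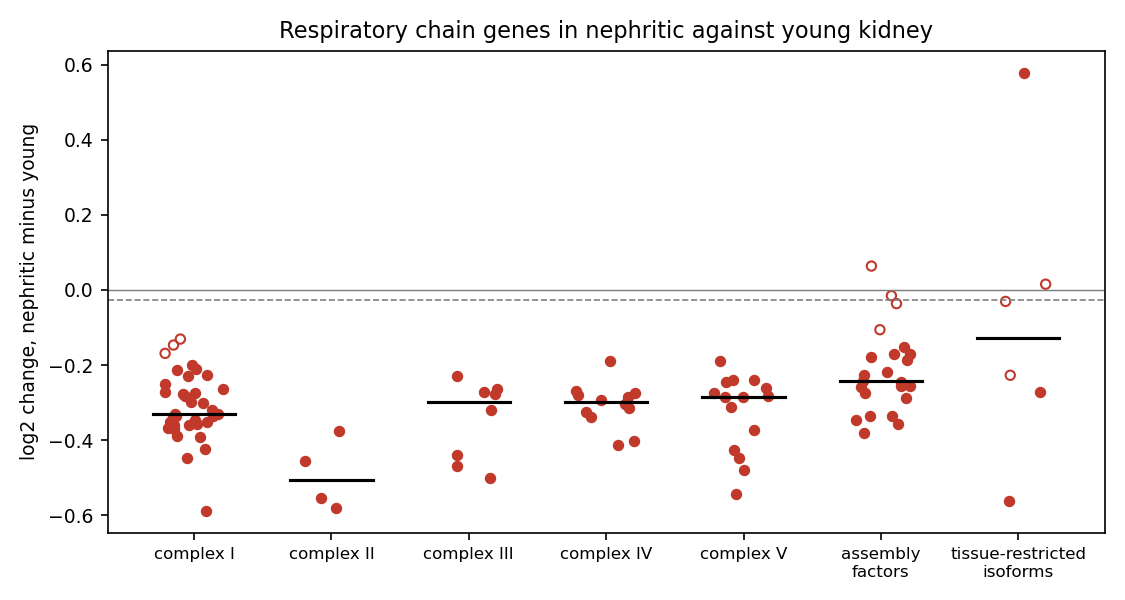
Log2 change of each gene in nephritic against young kidneys, by complex for the 74 structural subunits, then for the 23 assembly factors and the 6 tissue-restricted isoforms. Filled points passed an adjusted p of 0.05, open points did not, black lines are medians and the dashed line is the median of all genes tested (-0.03); all structural points lie below 0, and Cox8b stands alone at 0.58.

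Assembly factors build the complexes and are not part of the finished enzymes. Of 23, 19 were lower with a median log2 change of -0.24. The heme A synthase Cox15 (-0.38), the copper chaperone Cox11 (-0.36) and the complex I factor Ndufaf6 (-0.35) fell most. Cox19, Cox16, Sdhaf2 and Ndufaf2 did not pass the test, and Cox19, a protein of copper delivery, had the single positive value among them, 0.06.

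The 6 tissue-restricted isoforms of complex IV did not share a direction. Among them, 3 were scarce in kidney: per kilobase of exon, median young levels were 1.76 CPM for Cox4i2 against 953 for the general Cox4i1, 2.02 for Cox6a2 against 1965 for Cox6a1, and 34.3 for Cox8b against 1704 for Cox8a. Cox7a1 and Cox6b2 stood nearer their general forms. Over the original libraries, not scaled for length, Cox7a1 had 67856 counts against 693338 for Cox7a2, and Cox6b2 45578 against 927746 for Cox6b1. Cox6a2 and Cox7a1, the heart and muscle isoforms, were lower, at -0.56 (SE 0.15) and -0.27 (SE 0.11) on the log2 scale. Cox4i2 (-0.23), the testis isoform Cox6b2 (-0.03) and Ndufa4l2 (0.02) did not pass the test. Cox8b was higher, at 6.73 to 44.2 CPM in nephritic mice with a median of 21.5 against 3.37 to 36.3 with a median of 12.3 in young mice. These ranges overlapped widely, and the log2 change was 0.58 (SE 0.16, adjusted p = 0.00155).

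Cox8b is abundant in brown fat. The 8 adipocyte genes measured beside it had a median log2 change of -0.37 in nephritic mice, with 1 higher and 0 lower at the threshold. The higher gene was Elovl3, another brown fat gene (log2 change 1.22, SE 0.42). Ucp1, the defining brown fat uncoupler, had a log2 difference of 0.46 (SE 0.33, adjusted p = 0.22). Summed CPM of the 8 genes ranged from 12.1 to 348 in young, 11.9 to 286 in nephritic and 13.6 to 213 in remission mice, and none was at 0 in a whole group. The part of fat around the kidney in the change of Cox8b was not tested.

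Neighbouring mitochondrial genes moved with the chain. All 14 genes of the tricarboxylic acid cycle were lower in nephritic mice (median log2 change -0.47). So were 17 of 18 electron carriers and coenzyme Q or cytochrome c genes (-0.32) and 25 of 28 further assembly factors and related genes with other symbols (-0.23). Of 16 regulators of mitochondrial biogenesis, 12 were lower and 1 was higher. The coactivator Ppargc1a changed by -0.40, its cofactor Perm1 by -0.87, the estrogen-related receptor Esrra by -0.36 and the mitochondrial transcription factor Tfam by -0.26. The relative Pprc1 was higher by 0.48, and Nrf1 (0.06) and Yy1 (-0.05) did not pass the test.

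Markers of cell types also moved. All 10 proximal tubule markers were lower in nephritic mice, with a median log2 change of -0.75, and their summed CPM ranged from 13828 to 20426 in young and from 2468 to 16549 in nephritic mice. All 11 leukocyte markers were higher (median 2.62), at 85.3 to 206 summed CPM in young and 203 to 3481 in nephritic mice, as were 3 of 4 fibroblast markers and all 6 tubular injury genes (median 3.39). Of 6 thick limb and distal markers 3 were lower and 1 was higher (median -0.33). Among 6 collecting duct markers 1 was lower and 1 higher (-0.02). Of 4 podocyte markers 0 were lower and 2 higher (0.26), and of 4 endothelial markers 2 were lower and 0 higher (-0.12). No defining marker of the proximal tubule or of leukocytes was at 0 in any group. The part of these shifts in cell makeup in the fall of the chain was not tested.

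The fall depended on scaling and set. Scaled by total counts alone, which moved the median of all genes to 0.14 on the log2 scale, 59 genes were lower and 3 higher (median of the 103 genes -0.13); the share of lower genes among all genes called went from 54.7% to 24.7%. In Set 2 alone 95 were lower and 1 higher. In Set 1 alone, of 6 young and 5 nephritic mice, 29 were lower and 6 higher, with Ndufs1 at -1.34 and Ndufa2 at 0.64. Shares of all genes called in the single-set fits are not given here, so these counts have no background beside them.

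Levels also differed among the nephritic mice themselves. Their Lcn2, a gene of injured tubules, ranged from 4.85 to 709 CPM, a span of 7.17 on the log2 scale. In a fit of each gene on log2 Lcn2 with time and set, 97 of the 103 genes fell as Lcn2 rose and 0 rose, against 23.6% of all genes falling and 24.3% rising; 0 of the 103 rose at an unadjusted p under 0.05, or with DESeq2 or limma. Every one of the 74 structural subunits fell. The median slope was -0.11 per log2 unit of Lcn2, against 0.00 over all genes tested.

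Ndufs1 fell by 0.18 per log2 unit of Lcn2 (SE 0.03, adjusted p = 5.22e-06) and Sdha by 0.18 (SE 0.03, adjusted p = 6.06e-06). Complex II again had the steepest median slope, -0.15, against -0.11 in complex I, -0.11 in complex III, -0.11 in complex IV and -0.12 in complex V. The steepest single genes were the muscle isoforms Cox7a1 at -0.21 and Cox6a2 at -0.20, whereas Cox8b (-0.05, adjusted p = 0.39) and Ndufa4l2 (-0.01) did not pass. All 14 genes of the tricarboxylic acid cycle (median slope -0.14) and all 10 proximal tubule markers (-0.23) fell as well. The 6 injury genes, of which Lcn2 is 1, rose, as did 3 of 4 fibroblast markers (median slope 0.34), 3 of 11 leukocyte markers (0.09) and all 7 adrenal genes (1.27), and 5 of 6 thick limb and distal markers fell (-0.18). Without RX10LU, the nephritic mouse with the highest sum of adrenal genes, 91 of the 103 genes fell. That fit called 7079 of all 16791 genes in either direction. With all nephritic mice 3984 fell and 4106 rose, of 16872. The part of these markers in the slopes was not tested.

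**Figure D3:**
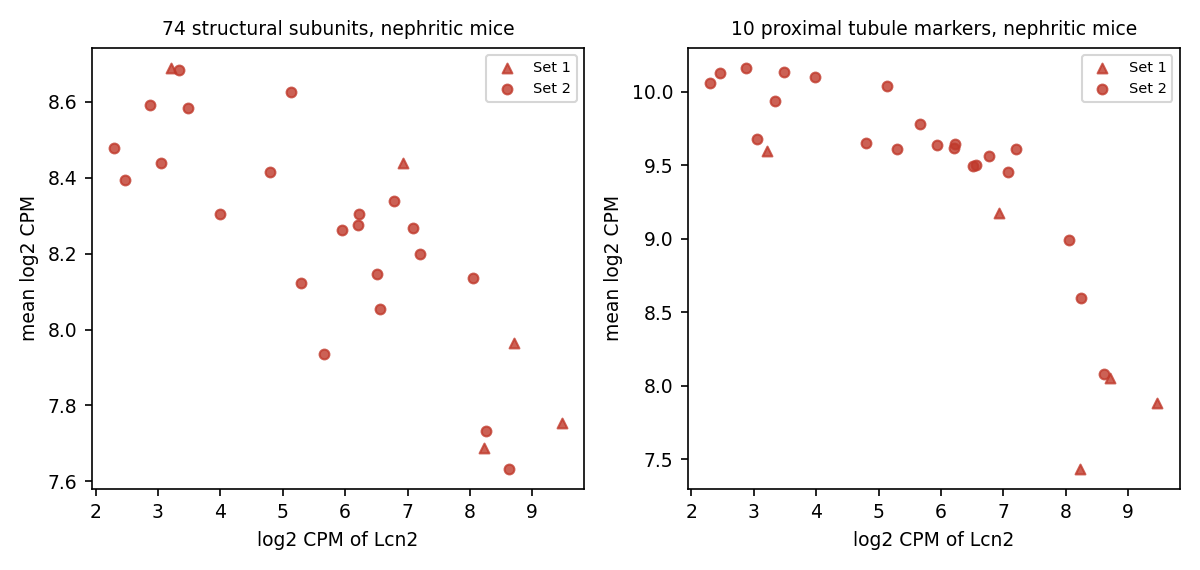
Mean log2 CPM of the 74 structural subunits (left) and of 10 proximal tubule markers (right) against log2 CPM of Lcn2 in the 27 nephritic mice; triangles are Set 1 and circles are Set 2. Subunit levels spread from 8.69 at low Lcn2 to 7.63 at high Lcn2, and the proximal tubule markers decline most steeply at the highest Lcn2.

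The remission mice were compared with nephritic and young mice of ZT0 and ZT12 in 1 fit, so that both comparisons use the same remission libraries. Against nephritic mice, 55 of the 103 genes were higher and 0 were lower, whereas 17.1% of the 16841 genes tested were higher and 20.8% lower; no gene of the 103 was lower at an unadjusted p under 0.05, or with DESeq2 or limma. The median change was 0.31 on the log2 scale against -0.02 over all genes tested. By complex, 22 of 35 subunits were higher in complex I, 2 of 4 in complex II, 2 of 8 in complex III, 7 of 12 in complex IV and 9 of 15 in complex V, and 11 of 23 assembly factors.

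Ndufb8, an accessory subunit of complex I, had the largest structural increase. Its level was 520 to 604 CPM in remission mice with a median of 574.9, against 226 to 477 in nephritic mice of all times (median 367) and 323 to 505 in young mice (median 421). Every remission mouse lay above every nephritic and every young mouse. The log2 change against nephritic mice was 0.75 (SE 0.11, adjusted p = 3.89e-06).

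Ndufs1 in remission ranged from 193 to 278 CPM with a median of 242, and its log2 change against nephritic mice of 0.47 (SE 0.19) lay just outside the threshold (adjusted p = 0.0503). Sdha, at 840.0 to 1181 CPM with a median of 946, was higher by 0.50 (SE 0.18, adjusted p = 0.0314). Sdhb (0.52), Atp5b (0.52), the complex I accessory subunits Ndufa6 (0.52), Ndufa13 (0.59), Ndufb3 (0.43) and Ndufb10 (0.62), the copper chaperone Cox17 (0.54) and the complex IV factor Cox14 (0.55) also rose. Only 1 of the 8 remission mice was below the lowest young mouse for Ndufs1 and 0 were for Sdha, Sdhb and Atp5b, but 6 were for Uqcrc2.

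Against young mice the chain in remission was near level, with a median log2 change of -0.05. Of the 103 genes, 10 were lower and 8 higher, against 20.5% and 21.1% of all genes tested. The lower genes included the complex I assembly factor Ndufaf1 (-0.46), Atp5sl (-0.39, a complex I assembly protein despite its symbol), Atp5s (-0.39, a factor coupled to ATP synthase), Ndufaf4 (-0.40), the complex III subunit Uqcrb (-0.41) and Ndufa3 (-0.36). Higher genes included Ndufa4l2 (0.87, a hypoxia-responsive relative of Ndufa4), the epsilon subunit Atp5e (0.53), Ndufb8 (0.44) and Cox14 (0.36).

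Several of these genes also differed between runs in the same mice. In the 3 mice whose repeats lay nearest their originals, the repeat minus the original averaged 0.42 on the log2 scale for Ndufa4l2, 0.36 for Atp5e, 0.32 for Cox17 and 0.22 for Ndufb8, and -0.32 for Ndufaf1, -0.28 for Ndufa3 and -0.26 for Uqcrb. Over the 103 genes the median was 0.03, with 10 genes beyond 0.3 in size, and Ndufs1 (-0.01) and Sdha (0.05) hardly moved.

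With a run term taken from the repeats of 4 mice, 47 genes were higher in remission than in nephritic mice (median log2 change 0.44). With the repeats of 3 mice 38 were higher (0.47), and within the remission run alone, against 2 nephritic repeats, 87 (0.55). The run-term fits had no term for the mouse, so each repeat counted as a separate mouse and was not paired with its original. The shares of all genes called in these fits are not given here, so the counts have no background beside them. In those 2 nephritic repeats the 103 genes took 2.29% and 2.89% of the counts, below the nephritic median of 3.22%. The RX11RU repeat, of doubtful identity, is 1 of them. Against young mice these fits called 0 higher and 0 lower, 0 and 0, and 0 higher and 1 lower (Atp5sl, -0.42), with medians of 0.08, 0.12 and -0.01. Ndufb8 kept its call against nephritic mice in each (0.69, 0.72 and 0.78). Ndufa4l2 lost it in each (0.20, 0.24 and 0.07), and Ndufs1 gained it with 3 mice (0.88, adjusted p = 0.0368) and within the run (0.70).

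**Figure D4:**
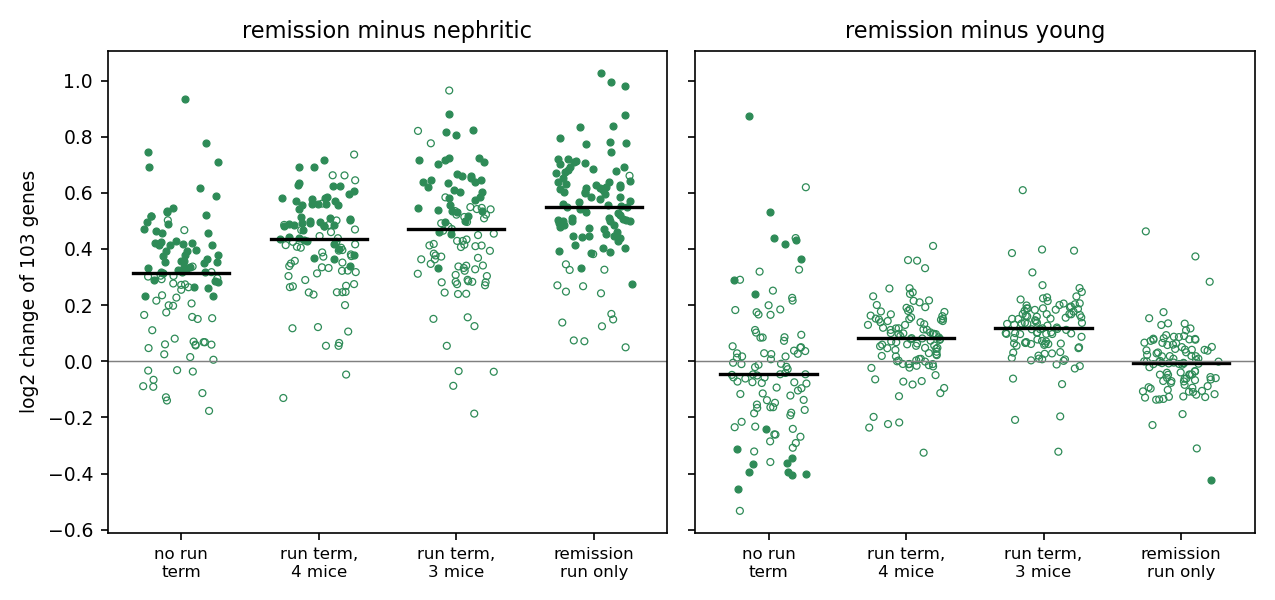
Log2 change of the 103 genes in remission against nephritic mice (left) and against young mice (right). Columns are without a run term, with a run term from the repeats of 4 or of 3 mice, and within the remission run alone. Filled points passed an adjusted p of 0.05 and black lines are medians. The medians against nephritic mice lie from 0.31 to 0.55 and those against young mice from -0.05 to 0.12.

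The number of higher genes rested partly on remission mouse s10, which had the highest summed level of the chain in the group (41537 CPM, against 33589 in the lowest). Without it 36 genes were higher than in nephritic mice, and 16 lower and 5 higher than in young mice. Without s9, 50 were higher than in nephritic mice. With all mice, but scaled by total counts, 34 were higher and 3 lower, and the share of all genes in that fit is not given here. Of all genes, 5511 of 16830 differed from nephritic mice in either direction without s10 and 5844 of 16819 without s9. With all mice 6370 of 16841 did.

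Other lists were compared in the same fit. Against nephritic mice 8 of 18 electron carriers (median log2 change 0.28) and all 4 endothelial markers (0.68) were higher and 0 of each lower. Of the 28 further assembly factors and related genes 14 were higher (0.24) and 0 lower. Only 2 of 14 genes of the tricarboxylic acid cycle passed the test against nephritic mice, both higher (median log2 change 0.25). Of 10 proximal tubule markers 2 were higher and 1 lower against nephritic mice (median 0.27), and 5 were lower against young mice (median -0.67). The summed CPM of these 10 markers was 10394 to 15731 in remission. Among 6 thick limb and distal markers 2 were higher and 0 lower against nephritic mice (median 0.67). Against young mice 1 of them was higher and 2 were lower (0.04). Among 6 collecting duct markers 1 was higher and 0 lower against nephritic mice (0.07), and among 4 podocyte markers 0 and 1 (-0.14). Of 11 leukocyte markers 1 was higher against nephritic mice and all 11 were higher than in young mice (median 2.70), while 4 of 6 injury genes were lower than in nephritic mice. Biogenesis regulators had 5 higher, among them Perm1 (0.66), Esrra (0.29) and Tfam (0.25), and Pprc1 lower (-0.33).

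Time of day was examined last. In young mice 15 of the 103 genes varied over the 6 times, against 39.8% of the 16521 genes tested. These were 6 of 74 structural subunits (Cox6a1, Ndufa8, Ndufb11, Ndufc2, Ndufs6 and Sdhd), 8 of 23 assembly factors (Atp5sl, Cox11, Cox14, Cox19, Ndufaf1, Ndufaf7, Sdhaf1 and Sdhaf4) and Cox8b. The median 24 h amplitude of the 103 genes was 0.09 on the log2 scale, against 0.13 over all genes, and only 1 structural subunit exceeded 0.2.

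Cox8b had the largest amplitude, 0.78 (SE 0.17), with 8.47 ± 4.42 CPM (SD, n = 4) at ZT8 and 26.2 ± 8.67 (SD, n = 4) at ZT16. Ucp1 and Adipoq, a general adipocyte hormone, had amplitudes of 1.04 (SE 0.31) and 1.12 (SE 0.25) in the same mice, and all 8 adipocyte genes varied over time; the part of fat in the rhythm of Cox8b was not tested. Among the others, Atp5sl (amplitude 0.21, SE 0.03) peaked at ZT8 and Cox11, a copper chaperone of complex IV, at ZT12, where it held 32.8 ± 3.72 CPM (SD, n = 7) against 25.2 ± 0.837 (SD, n = 4) at ZT8. Cox19 and Ndufaf1 peaked at ZT4 and were lowest at ZT12, with amplitudes of 0.19 (SE 0.04) and 0.12 (SE 0.03).

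In nephritic mice 9 of the 103 genes varied over time, against 21.6% of all 16872 genes tested. Sdhaf4 and Sdhaf1, assembly factors of complex II, and Cox14 were in both lists, and the other genes were Ndufa2, Ndufb7, Ndufaf8, Atp5e, Atp5g2 and Atp5s. Sdhaf4 was at 26.1 ± 2.24 CPM (SD, n = 4) at ZT8 and 16.2 ± 1.39 (SD, n = 6) at ZT12 in nephritic mice, and at 28.2 ± 2.45 (SD, n = 4) at ZT4 and 20.8 ± 1.599 (SD, n = 4) at ZT16 in young mice. All 9 genes peaked at ZT8 in nephritic mice and were lowest at ZT12. Ndufaf8, an assembly factor of complex I, fell from 54.3 ± 5.40 CPM (SD, n = 4) to 32.0 ± 4.64 (SD, n = 6) between those times, Sdhaf1 from 48.8 ± 5.07 to 32.2 ± 4.77, Ndufa2 from 297 ± 27.6 to 194 ± 52.6, and Atp5g2 from 293 ± 25.3 to 208 ± 28.04. A change of rhythm between the groups passed for 0 of the 103 genes, against 6.27% of all 17521 genes (1099 genes; leaving out 1 mouse gave from 638 without RX1OLL to 1771 without RX10RL). With edgeR, 14 had an unadjusted p under 0.05, DESeq2 called 4 and limma 0, and the smallest adjusted p was 0.0616 for Sdhaf4.

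The time of the highest mean, in contrast, was shared by most of the chain. In young mice 79 of the 103 genes (76.7%) peaked at ZT4, among them 66 of 74 structural subunits and all 8 of complex III, while 20.5% of all genes did. In nephritic mice 88 of the 103 (85.4%) peaked at ZT8, among them 70 structural subunits, while 22.8% of all genes did. Only 8 genes had the same peak time in both groups. The genes of a time point come from the same 3 to 7 kidneys, so that their shared peak is a description of those kidneys, and the change-of-rhythm test above called 0 of the 103 genes with edgeR over all mice.

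Averaged over the 74 structural subunits, log2 CPM was 8.72 ± 0.09 (SD, n = 4) at ZT4 and 8.62 ± 0.06 (SD, n = 4) at ZT8 in young mice, and 8.21 ± 0.11 (SD, n = 4) and 8.56 ± 0.15 (SD, n = 4) in nephritic mice. At ZT4 all young mice lay above all nephritic mice, and at ZT8 the groups overlapped. The set-adjusted median difference of the structural subunits, nephritic minus young, was -0.55 at ZT4, -0.45 at ZT12, -0.32 at ZT0, -0.25 at ZT16, -0.22 at ZT20 and -0.09 at ZT8. For complex II it was -0.80 at ZT12 and -0.28 at ZT8.

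**Figure D5:**
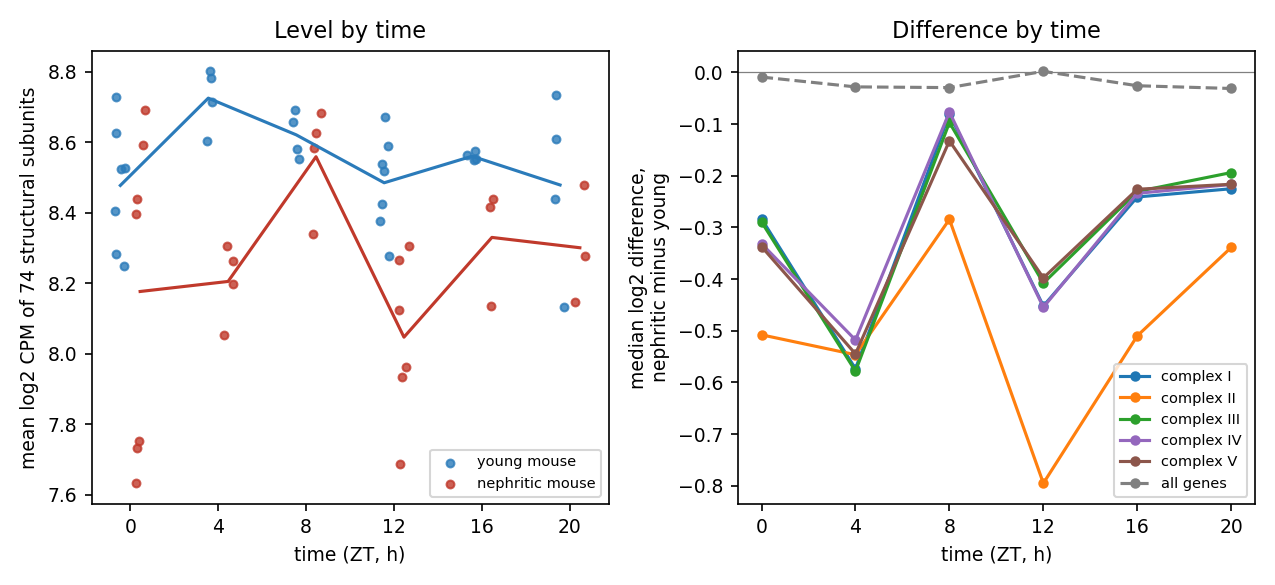
Left, mean log2 CPM of the 74 structural subunits in each young (blue) and nephritic (red) mouse by time, with lines through the time means. Right, the median set-adjusted log2 difference, nephritic minus young, of the subunits of each complex and of all genes (grey, dashed); the complexes come nearest to 0 at ZT8 and complex II is lowest at ZT12.

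Injury was not even across the times. Median Lcn2 in nephritic mice was 23.1 CPM at ZT8 (n = 4), 27.8 at ZT16 (n = 3), and from 73.8 to 121 at the other times. With log2 Lcn2 as a term in the nephritic fit, an alternative chosen after seeing the data, 36 of the 103 genes varied over time, against 38.9% of all genes, and they included all 9 called without it.

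The count of rhythmic genes depended on the test and on single mice. In young mice a cosine fit called 31 and DESeq2 26. Leaving out each mouse gave from 6 to 29: 6 without ZT40, 8 without ZT4RU, 9 without ZT4RL, 24 without ZT20LU and 29 without ZT20RU. In that order, those fits called 5867, 5945, 5865, 6919 and 6993 of all genes, against 6583 with all young mice. In nephritic mice a cosine fit called 0, DESeq2 21 and Set 2 alone 17. Leaving out 1 mouse gave 4 without RX7LU, 4 without RX12RL and 16 without CRS60. Those leave-out fits called 2610, 2546 and 4205 of all genes, against 3646 with all nephritic mice. Shares over all genes in the cosine, DESeq2 and Set 2 fits are not given here. Without RX11RU and RX11LU, whose libraries are in doubt, 5 were called. The change of rhythm was called for 1 to 3 genes in 25 of the 57 fits without 1 mouse, with 3 in that without RX10RL.

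In remission mice ZT0 and ZT12 differed for 0 of the 103 genes, against 0.0475% of all genes; 2 had an unadjusted p under 0.05, and DESeq2 and limma called 0. The time label of s9 is in doubt from its Arntl level; without it 0 of the 103 genes and 83 of all 16819 genes differed, against 8 of 16841 with it. Structural subunits differed by a median of -0.01 on the log2 scale, from -0.15 to 0.13. The widest difference was that of Cox8b, with 11.6 ± 4.34 CPM (SD, n = 4) at ZT0 and 29.1 ± 15.02 (SD, n = 4) at ZT12 (log2 difference -1.34, SE 0.46, adjusted p = 0.54; without s9 -1.57, SE 0.47, adjusted p = 0.15), and Ucp1 had a difference of -2.42 (SE 0.84) in the same 8 mice. With 4 mice a time, 15 of 100 genes simulated with a log2 difference of 0.5 were recovered, so that smaller differences were not detectable.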

How the data were processed

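Gene counts were deposited by the authors as raw, unnormalised counts per symbol, 1 file per library. Per the study's methods, 150 bp reads (HiSeq 4000) were aligned to mm10 by a Burrows-Wheeler algorithm (the submitters' processing notes name HISAT, with no version), ribosomal and mitochondrial sequences were filtered, and unique alignments with at most 2 mismatches were counted. Without mitochondrially encoded genes, levels are relative to nuclear mRNA. Reads shared with near-identical copies, which many of these genes have as pseudogenes, were thereby dropped or misplaced to an unknown degree.

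Counts were tested with edgeR 4.0.16 in R 4.3.3 (TMM scaling, quasi-likelihood F test, genes with at least 100 counts over the libraries of a fit, Benjamini-Hochberg adjustment over all genes tested, threshold 0.05), with sequencing set and, where named, time as terms. Standard errors were derived from F. Level fits used time points as factors; rhythm was tested over 6 times. Amplitudes are from a 24 h cosine on log2 CPM (prior count 2). The step was tested on simulated data: of 100 genes changed by a log2 of 0.3, 68 were recovered between nephritic and young mice and 14 between remission and nephritic mice. Few genes changed in the simulations, whereas 62.1% and 37.8% of all genes were called in those comparisons. The adjustment was therefore stricter in the simulations, and their shares do not carry over directly. Labels do not say that samples of a group came from separate litters, so p-values measure the spread between these mice.

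The text names, by rule, Ndufs1, Sdha, the isoforms, the 2 lowest and 2 highest changes per complex, the 3 largest among assembly factors, up to 10 genes with the smallest p per remission comparison, every rhythmic gene and the 3 steepest slopes; other genes and single mice were chosen after their values were seen. The 103 genes, marker lists and motifs were chosen with earlier results of these data known. Alternatives were RLE size factors, total counts, limma 3.58.1, DESeq2 1.42.0, no filter, single sets, repeat libraries, a cosine test, run terms, Havcr1 for Lcn2 and leaving out each mouse. The fits without RX11RU and RX11LU and with Lcn2 in the rhythm fit were added after seeing the data. Exon lengths are from GENCODE M21.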

Additional observations from a re-analysis of the deposited data

Results flagged for a closer look

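Groups of 4 to 7 mice at 1 time were screened for a mouse far from the rest in Ndufs1, Sdha and the 6 tissue-restricted isoforms. Of 96 screens, each of 1 gene in 1 group, 3 held such a mouse. The screens reuse the same mice. Chance flags about 1 in 20 screens, so 3 of 96 is no more than chance would give. Young ZT16 mouse ZT16RU had 212.5 CPM of Ndufs1, against 256 to 263 in the other 3, and it is the lowest young mouse for that gene. Young ZT4 mouse ZT4RU had 2.86 CPM of Cox6a2, against 1.51 to 1.63 in the others. Young ZT20 mouse ZT20LU had 8.68 CPM of Cox8b, against 23.04 to 27.9 in the others, and it also had the lowest summed level of the whole chain among young mice.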

How the results depend on the processing

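Nephritic against young: total counts gave 59 lower and 3 higher, and Set 1 alone 29 lower and 6 higher, with Ndufa2 (0.64), Ndufa11 (0.36), Uqcr11 (0.14), Atp5g2 (0.091), Cox7a2l (0.065) and Uqcr10 (0.056) turned positive; leaving out each mouse gave 91 to 95 lower. Remission against nephritic: total counts gave 34 higher and 3 lower, and the remission run alone 87 higher; leaving out each mouse gave 36 to 65 higher. Remission against young: both run terms gave 0 lower and 0 higher, the remission run alone 1 lower and 0 higher, limma 5 higher and Set 1 left out 4 higher; leaving out each mouse gave 8 to 16 lower and 5 to 12 higher. Uqcrb turned to 0.0501 with the 3-mouse run term, and Ndufa3 to 0.047 with the 4-mouse and 0.065 with the 3-mouse term. The counts in this paragraph have no share of all genes beside them.

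Rhythm in young mice: DESeq2 gave 26 and the cosine fit 31; leaving out each mouse gave 6 to 29. Rhythm in nephritic mice: total counts gave 14, DESeq2 21, Set 2 alone 17, no set term 4, the cosine fit 0, leaving out RX11RU and RX11LU 5, the Lcn2 term 36, and leaving out each mouse 4 to 16. Change of rhythm: total counts gave 1, DESeq2 4, Set 2 alone 2, and leaving out each mouse 0 to 3. The causes were not tested. The remission time comparison (0 genes) and the slope on Lcn2 (91 to 98 falling without each mouse) stayed within 1.5 times under every alternative run. At this depth and number of mice, 52 of 100 simulated log2 changes of 0.5 were recovered between remission and nephritic mice, against 92 between nephritic and young mice. Far fewer genes changed in the simulations than were called in the data. No paired analysis between groups was possible because the groups were made up of different mice. Repeats have originals in the same mice, but the run-term fits did not pair them.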
